A study of Mus musculus with 69 samples.

Results

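The genes described here are cytochromes P450 of family 2 from the subfamilies listed next. The Cyp2e subfamily and the phenobarbital marker genes Cyp2b10 and Cyp2c55 are not among them. They were taken as every probe set whose gene symbol starts with Cyp2a, Cyp2b, Cyp2c, Cyp2d, Cyp2f, Cyp2g, Cyp2j, Cyp2r, Cyp2s or Cyp2u followed by a number, leaving out Cyp2b10 and Cyp2c55. The rule found 28 of 17306 probe sets, each for a different gene. There were 8 in Cyp2c, 7 in Cyp2d, 5 in Cyp2j, 3 in Cyp2b, and 1 each in Cyp2a (Cyp2a12), Cyp2f (Cyp2f2), Cyp2r (Cyp2r1), Cyp2s (Cyp2s1) and Cyp2u (Cyp2u1). Other genes of these subfamilies, Cyp2g among them, were not analysed here.

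The study measured liver RNA of male C57BL/6 mice aged 10 weeks, each given 1 oral dose of a compound or of vehicle and sampled 1 or 2 days later. Acetaminophen (APAP) is a painkiller that injures the liver in overdose and had doses of 168.75, 225 and 300 mg/kg (low, medium and high). The antibiotic isoniazid (INZ), used against tuberculosis, had doses of 22, 44 and 88 mg/kg. The herbicide paraquat (PQ), which gives rise to reactive oxygen, had doses of 12.5, 25 and 50 mg/kg. All 3 doses were sampled at 1 day, and the high dose of each compound also at 2 days. Each of the 12 treated groups held 5 arrays, except PQ medium dose with 4, and each day had 1 vehicle group of 5. The vehicle mice were labelled for APAP, and the design text gives 1 vehicle set per day, so they served as controls for all 3 compounds, and comparisons of 1 day share their controls. Each array held the RNA of a piece of the left lateral lobe of 1 liver, a mixture of hepatocytes and other cells. In such bulk samples, fewer cells of a type and less RNA per cell cannot be told apart.

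Cytochromes P450 are heme enzymes of the endoplasmic reticulum that oxidise drugs, steroids, fatty acids and other small molecules with electrons from NADPH. In the liver they lie mostly in hepatocytes, and many of family 2 are stronger in the cells around the central vein, where APAP is also turned into its reactive metabolite, chiefly by Cyp2e1. The mouse has many more Cyp2c, Cyp2d and Cyp2j genes than humans, in tandem clusters of closely related copies. In this set the 8 Cyp2c genes lie on chromosome 19, the 7 Cyp2d genes on chromosome 15 and the 5 Cyp2j genes on chromosome 4. The Cyp2a, Cyp2b, Cyp2f, Cyp2r and Cyp2s genes lie on chromosome 7 and Cyp2u1 on chromosome 3. Because probes of close paralogs may bind each other's transcripts, changes of neighbouring Cyp2c or Cyp2d genes may not be independent measurements, which was not tested.

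Values are log2 signals, and levels of different probe sets are not compared. The median over all probe sets was 4.23 in the array where it was lowest. In vehicle livers 20 of the 28 genes had a mean above it on at least 1 day, and 8, called dim here (Cyp2b9, Cyp2b13, Cyp2b19, Cyp2d12, Cyp2d34, Cyp2j11, Cyp2j13 and Cyp2s1), had both vehicle means below it. A gene is called changed where limma's moderated test, fitted on all 69 arrays with 1 mean per group, gave an adjusted p under 0.05 over all 17306 probe sets. Each change is given with its standard error (SE).

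A few arrays stood apart from their groups in the Cyp2 genes. Replicate 1 of low-dose APAP had 22 of the 28 genes below all 5 vehicle arrays of its day, against 3 to 11 in the other 4 arrays of its group. Replicate 1 of high-dose PQ at 1 day had 23 below, against 5 to 9 in the other 4. In high-dose APAP at 1 day the odd array was the opposite: replicate 1 had 5 genes below, against 14 to 24 in the other 4. Over all probe sets, 35% lay below all vehicle arrays in replicate 1 of low-dose APAP, against 15.9% to 18.4% in the other 4. In replicate 1 of high-dose PQ the share was 38.7%, against 15.7% to 23.3% in the other 4, and in replicate 1 of high-dose APAP it was 22.8%, against 25.5% to 38.4%. Of the 14 genes called at high-dose APAP and 1 day, described next, 14 lay below all vehicle arrays in that low-dose APAP array and 13 in that PQ array. The plot of these counts by array shows all 59 treated arrays, and several results that rest on these 3 are given with and without them. The 3 were picked by how many Cyp2 genes were low in them. Counts of these genes in them, the 14 and 13 included, and without them follow in part from that choice and support nothing.

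**Figure D1:**
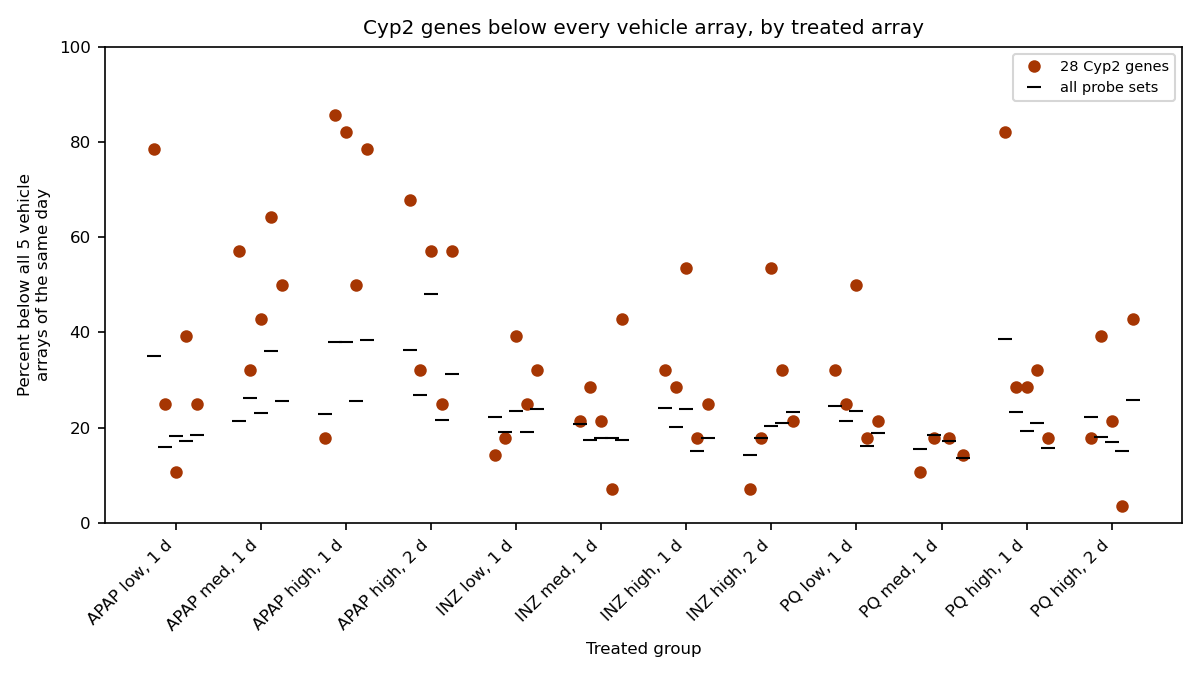
Percent of the 28 Cyp2 genes (points) and of all 17306 probe sets (dashes) that lie below all 5 vehicle arrays of the same day, for each treated array, by treated group. High-dose APAP at 1 day reached 24 of 28 genes in 1 array, while single arrays of low-dose APAP (22) and high-dose PQ (23) stood far above the rest of their groups.

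The first question was which of these P450 genes changed in APAP-treated livers. One day after 300 mg/kg APAP, 14 of the 28 genes were called lower and none higher (15.3% of all 17306 probe sets were called lower in this comparison). At an unadjusted p under 0.05 there were 16 (41.3% of all probe sets). The fitted change was below 0 for 27 of the 28, and its median was -0.32, against -0.05 over all probe sets. The genes called lower were Cyp2c29, Cyp2c37, Cyp2c50, Cyp2c54 and Cyp2c23 (listed in older sources as Cyp2c44), Cyp2d9, Cyp2d13 and Cyp2d22, Cyp2f2, Cyp2j5, Cyp2j6 and Cyp2j13, Cyp2r1 and Cyp2u1. Of the 20 genes that were not dim 13 were called, and of the 8 dim ones 1 (Cyp2j13). The 15.3% covers probe sets of every level, dim ones included, and was not split by level. Whether brighter probe sets are called more often in general was thus not tested, and nothing about Cyp2 genes is concluded from this split. The calls depend on the shared spread: over the 14 called genes the median SD was 0.505 among the high-dose arrays and 0.11 among the vehicle arrays. A fit of only these 10 arrays called 0 of the 28 genes (15 at an unadjusted p under 0.05, against 35.2% of all probe sets, lowest adjusted p = 0.063) and 18 of all probe sets, or 0.104%. Without the 3 arrays that stand apart, 18 of the 28 and 21.1% of all probe sets were called lower.

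**Figure D2:**
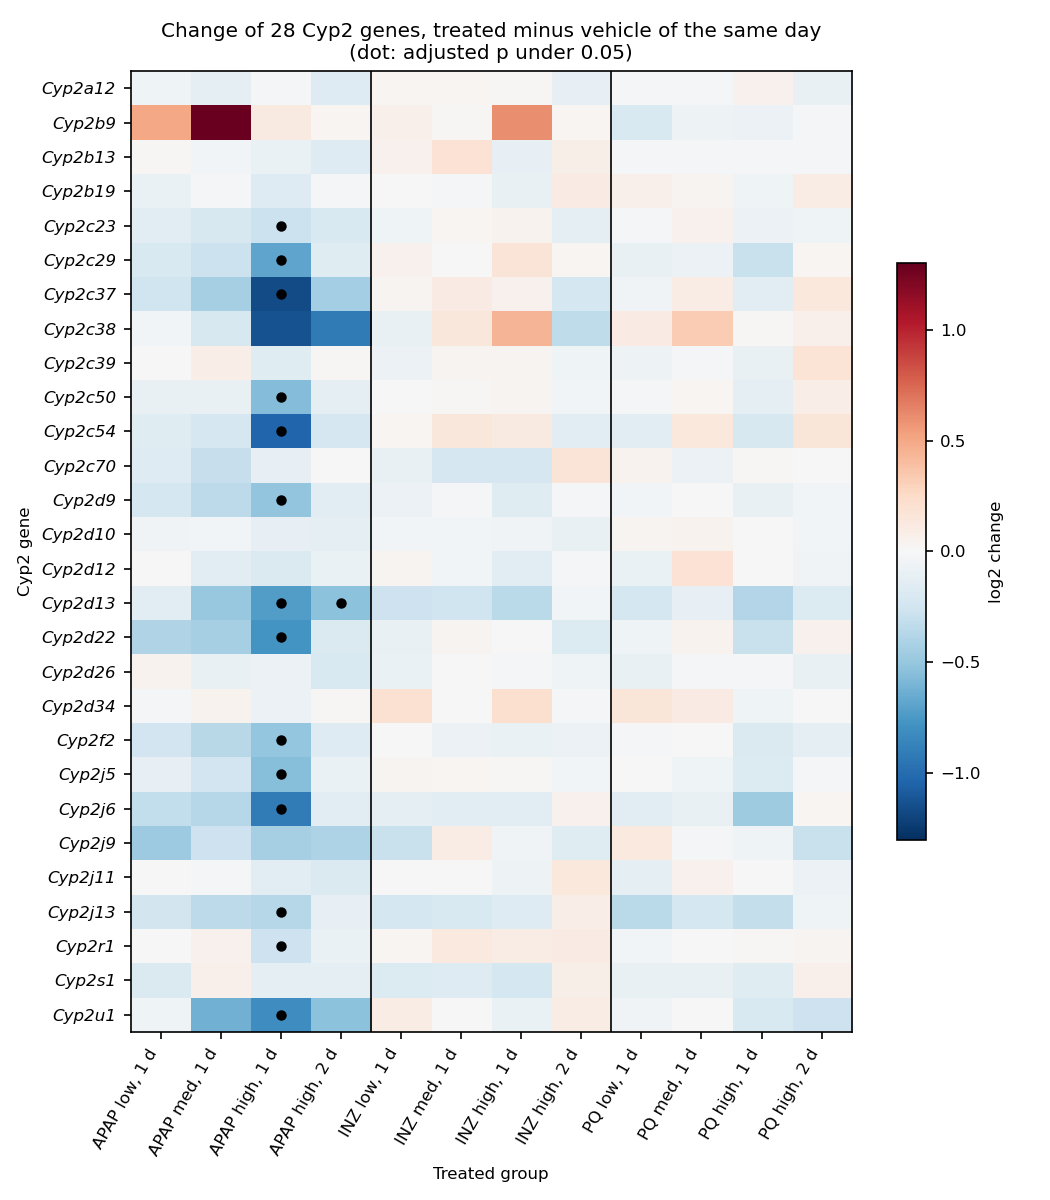
Log2 change of each of the 28 Cyp2 genes (rows) in the 12 treated groups (columns), treated minus vehicle of the same day, with blue for lower and red for higher in treated livers and a dot where the adjusted p is under 0.05. High-dose APAP at 1 day holds 14 dots, high-dose APAP at 2 days holds 1 (Cyp2d13) and the other 10 groups hold none.

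In the Cyp2c cluster, 5 of 8 genes fell at 1 day of high-dose APAP. The enzymes of Cyp2c29, Cyp2c37, Cyp2c50 and Cyp2c54 oxidise drugs and arachidonic acid, and their genes are induced by activators of the nuclear receptor CAR. Cyp2c37 had 11.58, 9.06, 9.45, 10.84 and 9.82 in high-dose livers, against 11.24, 11.29, 11.52, 11.32 and 11.18 in vehicle livers. Its change was -1.16 (SE 0.33, adjusted p = 0.0063), a 2.23-fold lower signal, and 4 of 5 high-dose arrays lay below all vehicle arrays while replicate 1 lay above them all. Cyp2c54, its neighbour on the chromosome, read 12.48, 10.00, 10.73, 11.54 and 10.67 in high-dose livers and 12.10, 11.94, 12.45, 12.25 and 11.82 in vehicle livers, a change of -1.03 (SE 0.27, adjusted p = 0.0041). Again 4 arrays were lower than every vehicle array and replicate 1 was higher than every one. Cyp2c29 showed 12.93, 11.32, 11.89, 12.62 and 11.94 in high-dose livers, against 12.83, 12.66, 12.96, 12.79 and 12.91 in vehicle livers, with a change of -0.69 (SE 0.19, adjusted p = 0.0061). Cyp2c50 gave 13.07, 11.62, 12.19, 12.63 and 11.98 in high-dose livers and 12.85, 12.81, 12.99, 12.88 and 12.76 in vehicle livers, a change of -0.56 (SE 0.16, adjusted p = 0.0057). For both, replicates 2, 3, 4 and 5 lay below all vehicle arrays and replicate 1 did not. The calls of Cyp2c29, Cyp2c37 and Cyp2c50 were lost without replicate 2 (adjusted p = 0.064, 0.053 and 0.062).

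The remaining Cyp2c genes gave smaller or more variable differences. Cyp2c23, an arachidonic acid epoxygenase, averaged 11.57 ± 0.28 in high-dose livers and 11.85 ± 0.05 in vehicle livers (SD, n = 5 each), a change of -0.27 (SE 0.11, adjusted p = 0.045). That call did not hold in 8 of the 10 fits that left out 1 of these arrays, which moved its adjusted p to as much as 0.2. Cyp2c38 had a wide spread, with 8.97, 4.71, 6.77, 7.94 and 7.36 in high-dose livers and 8.06, 7.76, 9.01, 8.41 and 8.17 in vehicle livers. The change of Cyp2c38, -1.14 (SE 0.51, adjusted p = 0.08), was close to that of Cyp2c37 in size and did not pass the test (95% interval -2.15 to -0.12). Cyp2c39, whose enzyme oxidises retinoic acid, had a change of -0.16 (SE 0.14, adjusted p = 0.38). Cyp2c70, an enzyme of muricholic bile acid synthesis in the mouse, stood at 12.55, 12.75, 12.55, 12.43 and 12.61 in high-dose livers, against 12.63, 12.87, 12.43, 12.86 and 12.64 in vehicle livers. Its 95% interval, -0.31 to 0.10, covers 0, and the groups overlapped.

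The Cyp2c promoters are shown to set 3 genes that fell beside their neighbour that was not called. Each is the 250 bases before the gene's start in RefSeq (GRCm38.p6), written from 5′ to 3′ in the direction of transcription. Capitals mark a match to CAAAGTNCA, a core of the binding motif of the hepatocyte factor HNF4A, searched on both strands. The positions are chr19:39286835-39287084 on the plus strand for Cyp2c29, chr19:39992174-39992423 on the plus strand for Cyp2c37, chr19:40089429-40089678 on the plus strand for Cyp2c50 and chr19:40187287-40187536 on the minus strand for Cyp2c70.
Cyp2c29: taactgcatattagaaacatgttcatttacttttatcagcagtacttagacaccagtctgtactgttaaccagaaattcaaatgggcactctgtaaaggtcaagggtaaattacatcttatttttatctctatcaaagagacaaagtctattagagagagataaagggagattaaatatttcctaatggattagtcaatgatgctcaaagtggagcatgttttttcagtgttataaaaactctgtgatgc
Cyp2c37: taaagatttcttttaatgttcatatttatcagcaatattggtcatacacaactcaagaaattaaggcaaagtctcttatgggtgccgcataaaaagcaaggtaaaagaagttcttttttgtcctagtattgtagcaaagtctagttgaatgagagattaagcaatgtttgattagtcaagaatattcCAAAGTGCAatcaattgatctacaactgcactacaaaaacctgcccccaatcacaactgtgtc
Cyp2c50: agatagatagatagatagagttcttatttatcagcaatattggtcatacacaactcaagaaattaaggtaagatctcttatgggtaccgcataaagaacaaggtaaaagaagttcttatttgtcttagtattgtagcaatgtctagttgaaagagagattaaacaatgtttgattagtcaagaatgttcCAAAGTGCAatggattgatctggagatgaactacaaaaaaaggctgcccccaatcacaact
Cyp2c70: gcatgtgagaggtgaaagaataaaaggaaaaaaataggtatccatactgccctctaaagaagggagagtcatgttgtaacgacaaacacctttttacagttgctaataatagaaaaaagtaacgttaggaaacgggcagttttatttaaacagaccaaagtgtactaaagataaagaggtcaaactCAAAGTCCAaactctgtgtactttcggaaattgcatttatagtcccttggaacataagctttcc
The promoters of Cyp2c37 and Cyp2c50 share 215 identical bases in a global alignment, 86% of the 250, and their matches start 63 and 61 bases before the gene's start. Cyp2c29 and Cyp2c37 share 160 bases, or 64%, and Cyp2c29 holds no match in this window. Cyp2c70, which was not called, holds a match that starts 64 bases before its start. RefSeq promoters were at hand for 21 of the 28 genes, of which 4 hold the motif: Cyp2c37 and Cyp2c50, which fell, and Cyp2c70 and Cyp2d26, which were not called. Of all 32851 promoters in that table, 1.19% hold it, and overlap with other motifs was not examined. Hnf4a RNA itself differed by -0.01 (SE 0.08, adjusted p = 0.97) between high-dose APAP and vehicle livers at 1 day.

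Of the 7 Cyp2d genes, relatives of the human drug-metabolising CYP2D6, 3 fell at 1 day of high-dose APAP. Cyp2d13, which RefSeq lists as a transcribed pseudogene, had 8.72, 7.77, 7.68, 8.68 and 7.57 in high-dose livers, against 8.64, 9.20, 8.85, 8.66 and 8.72 in vehicle livers, a change of -0.73 (SE 0.16, adjusted p = 0.0014). In Cyp2d22, whose enzyme is often set beside CYP2D6, the arrays read 10.07, 8.78, 9.07, 9.64 and 8.98 in high-dose livers and 10.15, 10.03, 10.23, 10.05 and 9.95 in vehicle livers, a change of -0.77 (SE 0.21, adjusted p = 0.0045). Replicates 2, 3 and 5 were lower than every vehicle array in both genes, and replicate 4 was so in Cyp2d22 alone. Cyp2d9, a steroid hydroxylase with higher expression in male than in female mouse liver, gave 12.86, 12.32, 12.16, 12.77 and 11.79 in high-dose livers and 12.87, 12.94, 12.88, 12.84 and 12.93 in vehicle livers, a change of -0.51 (SE 0.16, adjusted p = 0.011). Its call was lost without replicate 5 (adjusted p = 0.095). The bright genes Cyp2d10 and Cyp2d26 were not called, with changes of -0.10 (SE 0.08) and -0.07 (SE 0.07). Their 95% intervals were -0.25 to 0.05 and -0.21 to 0.06. The dim genes Cyp2d12 and Cyp2d34 had changes of -0.19 and -0.07 and did not pass the test.

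Cyp2f2 is known for activating naphthalene in mouse lung and liver, and in liver it is stronger in periportal than in pericentral hepatocytes. It had 12.82, 12.53, 12.36, 13.03 and 12.27 in high-dose livers, against 13.11, 13.16, 13.11, 13.06 and 13.07 in vehicle livers. All 5 high-dose arrays lay below all 5 vehicle arrays, and the change was -0.50 (SE 0.12, adjusted p = 0.0023), a 1.41-fold lower signal. In this comparison 3 of the 28 genes separated completely in this way, Cyp2f2, Cyp2j6 and Cyp2j13 (4.21% of all probe sets did).

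Among the 5 Cyp2j genes, whose enzymes include epoxygenases of arachidonic acid, 3 fell. Cyp2j6 had the smallest adjusted p of the 28 genes, with 7.55, 6.64, 6.66, 7.32 and 6.54 in high-dose livers and 8.01, 7.83, 7.86, 7.85 and 7.71 in vehicle livers. Its change of -0.91 (SE 0.16, adjusted p = 0.00049) is a 1.88-fold lower signal, and no high-dose array reached a vehicle array. Cyp2j5, a hepatic and renal epoxygenase, had 10.69, 9.76, 9.76, 10.55 and 9.76 in high-dose livers, against 10.66, 10.72, 10.63, 10.63 and 10.64 in vehicle livers, a change of -0.56 (SE 0.12, adjusted p = 0.00089). Here replicate 1 lay within the vehicle range, and the other 4 lay below it. Cyp2j13 was dim, with 3.47, 3.45, 3.25, 3.29 and 3.19 in high-dose livers and 3.77, 3.49, 3.83, 3.94 and 3.49 in vehicle livers, a change of -0.37 (SE 0.09, adjusted p = 0.0016). Its small p rests on differences between signals near the bottom of the scale, and its vehicle group at 1 day read higher than at 2 days (mean 3.71 and 3.45). Cyp2j9, at -0.43 with a 95% interval of -0.98 to 0.11, and Cyp2j11, at -0.15, did not pass.

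Cyp2u1, a hydroxylase of long-chain fatty acids, had 7.16, 6.29, 5.87, 7.60 and 5.88 in high-dose livers, against 7.35, 7.60, 7.18, 7.14 and 7.59 in vehicle livers. Replicates 2, 3 and 5 were well below the vehicle arrays, replicate 1 lay within them and replicate 4 slightly above, and the change was -0.81 (SE 0.23, adjusted p = 0.0063). Its call was lost without replicate 5 (adjusted p = 0.051). Cyp2r1, a microsomal vitamin D hydroxylase that makes the circulating form of the vitamin, averaged 7.98 ± 0.20 in high-dose livers and 8.25 ± 0.11 in vehicle livers (SD, n = 5 each). The change of Cyp2r1, -0.27 (SE 0.09, adjusted p = 0.023), passed the test, and 4 of the 10 fits without 1 array lost it. Cyp2a12, a hydroxylase of steroids and bile acids, stayed within narrow limits, with 12.31, 12.10, 12.22, 12.24 and 12.33 in high-dose livers and 12.23, 12.35, 12.20, 12.18 and 12.35 in vehicle livers. Its 95% interval for the change was -0.14 to 0.09. No gene of the Cyp2b subfamily and not Cyp2s1 passed the test, and their changes lay between -0.17 in Cyp2b19 and 0.12 in Cyp2b9. The Cyp2b9 value, the only one above 0 among the 28, was -0.09 without replicate 1 of the high dose.

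**Figure D3:**
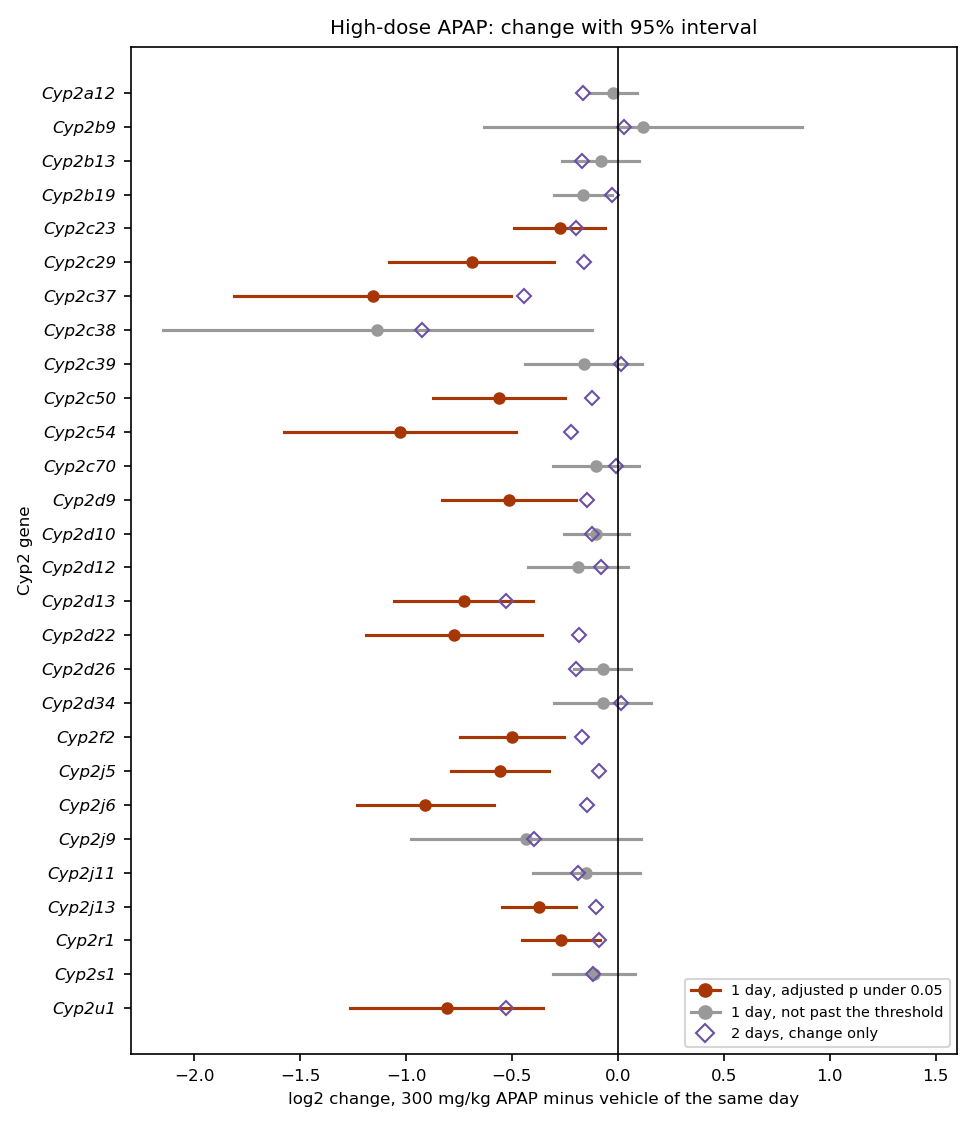
Log2 change of the 28 Cyp2 genes, 300 mg/kg APAP minus vehicle of the same day, by subfamily from top to bottom. Points and lines give the change and its 95% interval at 1 day, coloured where the adjusted p is under 0.05, and open diamonds give the change at 2 days. The deepest 1-day change is that of Cyp2c37 at -1.16, and most diamonds lie nearer to 0 than the 1-day point.

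The 5 high-dose APAP livers at 1 day differed among themselves. Of the 14 called genes, all 14 lay below every vehicle array in replicates 2, 3 and 5, 10 did so in replicate 4 and 4 in replicate 1. The 14 were called from these same arrays, so low values in most of them follow in part from that choice. The median difference of the 14 genes from the vehicle means lay between -1.06 and -0.92 in replicates 2, 3 and 5, and was -0.17 in replicate 4 and -0.02 in replicate 1. Replicate 1 held the highest value of its group in 11 of the 14 genes and replicate 4 in the other 3. The lowest value was in replicate 5 for 7 genes, in replicate 2 for 6 and in replicate 3 for 1. Over all 28 genes the median SD was 0.35 in this group, against 0.114 in the vehicle arrays of the same day, while over all probe sets it was 0.169 and 0.114.

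**Figure D4:**
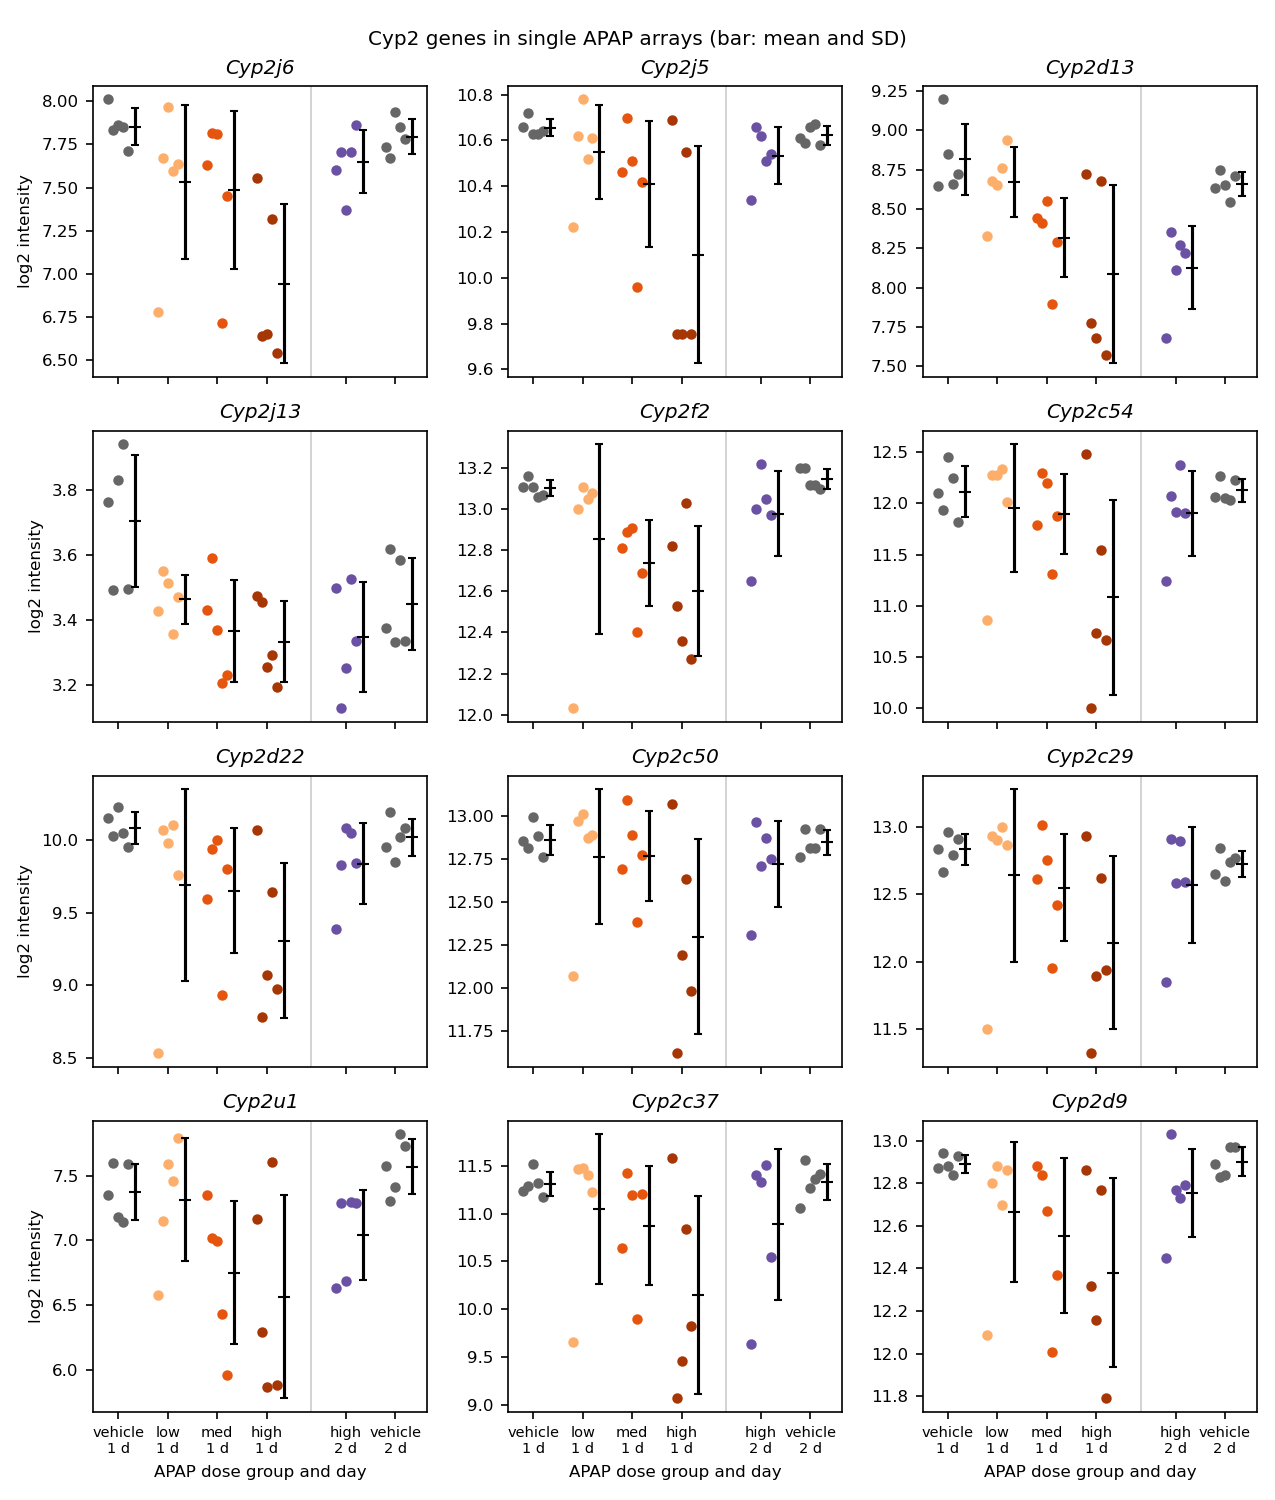
Log2 signal of the 12 Cyp2 genes with the smallest adjusted p at 1 day of high-dose APAP, in each array of vehicle and of the low, medium and high APAP dose at 1 day, then of the high dose and vehicle at 2 days, with mean and SD. In most panels replicates 2, 3 and 5 are the lowest arrays of the high dose at 1 day. Replicate 1 of the low dose and replicate 4 of the medium dose lie below all vehicle arrays of 1 day, often above those high-dose replicates.

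The dose question was asked with vehicle and the 3 APAP doses at 1 day. The group means were lower at each step from vehicle through low and medium to high dose in 14 of the 28 genes (50%), against 17.3% of all probe sets. Low-dose means include replicate 1, which stood apart, and the step count was not repeated without it. In Cyp2c37 that array had 9.66, against 11.47, 11.48, 11.41 and 11.23 in the other low-dose arrays and 11.18 to 11.52 in vehicle arrays. For Cyp2c37 the step to the low dose thus rests on that array. Without it the low-dose difference from vehicle was -0.04 in Cyp2f2 and -0.13 in Cyp2j6, both among the 14. A contrast linear in mg/kg called 13 of the 28 lower and none higher (14.8% of all probe sets were called lower), and 15 had an unadjusted p under 0.05 (40.8%). The 13 are the genes called at the high dose except Cyp2r1, whose trend had an adjusted p = 0.095. The fitted change over the dose range was -1.03 (SE 0.31) for Cyp2c37 and -0.82 (SE 0.15) for Cyp2j6. Fitted on the 20 arrays of these groups alone, the contrast called 1 (Cyp2j13), and 1.17% of all probe sets. Cyp2j13 is dim, and its vehicle mean was 3.71 at 1 day and 3.45 at 2 days. It was also lower than the 1-day vehicle group at each dose of INZ and PQ. Its difference at low-dose PQ was -0.35 (SE 0.09), near the -0.37 of high-dose APAP, so its trend cannot be tied to APAP.

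At 225 mg/kg APAP, 0 of the 28 genes were called (0.243% of all probe sets), and 11 had an unadjusted p under 0.05, of which 10 were lower (18.4% of all probe sets had one). Cyp2d13 had 8.44, 8.41, 8.55, 7.90 and 8.29 in medium-dose livers, against 8.64, 9.20, 8.85, 8.66 and 8.72 in vehicle livers, a difference of -0.50 (SE 0.16, adjusted p = 0.14). Cyp2j13 had 3.43, 3.59, 3.37, 3.21 and 3.23 in medium-dose livers and 3.77, 3.49, 3.83, 3.94 and 3.49 in vehicle livers, a difference of -0.34 (SE 0.09, adjusted p = 0.061). Cyp2d13 and Cyp2f2 separated completely from vehicle (2.03% of all probe sets did), and the Cyp2f2 arrays read 12.81, 12.89, 12.91, 12.40 and 12.69. Replicate 4 was the lowest medium-dose array of Cyp2c37, at 9.90 against 11.18 for the lowest vehicle array. Without the 3 arrays that stand apart, none of which is in this group, 5 genes were called lower (2.13% of all probe sets) and 1, Cyp2b9, higher (3.69%).

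At 168.75 mg/kg, 0 of the 28 genes were called (0% of all probe sets), and 2 had an unadjusted p under 0.05 (6.39% of all probe sets). Cyp2f2 had 12.03, 13.00, 13.11, 13.05 and 13.08 in low-dose livers, against 13.11, 13.16, 13.11, 13.06 and 13.07 in vehicle livers, a difference of -0.25 (SE 0.12, adjusted p = 0.76). Cyp2j6 had 6.78, 7.67, 7.97, 7.59 and 7.64 in low-dose livers, against 8.01, 7.83, 7.86, 7.85 and 7.71 in vehicle livers, a difference of -0.32 (SE 0.16, adjusted p = 0.76). In both genes replicate 1 lay far below the other 4. Without that array the differences were -0.04 for Cyp2f2 and -0.13 for Cyp2j6. The dim gene Cyp2j13 had 3.43, 3.55, 3.52, 3.36 and 3.47 in low-dose livers, a difference of -0.24 (SE 0.09, adjusted p = 0.76) from vehicle.

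Cyp2b9 was high in single livers of several groups. Its product is a testosterone hydroxylase, and the gene is higher in female than in male mouse liver. In medium-dose APAP livers it had 3.45, 4.36, 3.41, 6.03 and 7.74, against 3.60, 3.42, 4.25, 3.76 and 3.53 in vehicle livers, a difference of 1.28 (SE 0.37, adjusted p = 0.11). Replicates 4 and 5 carried that difference, and the other 3 lay at or near the vehicle range. Low-dose APAP livers had 5.24, 4.07, 3.94, 3.92 and 3.93, and high-dose APAP livers at 1 day had 4.68, 3.39, 3.33, 3.50 and 4.26. High-dose INZ livers at 1 day had 3.64, 3.67, 4.85, 4.13 and 5.30, a difference of 0.60 (SE 0.37, adjusted p = 1.0). Of the 44 treated arrays at 1 day, 8 lay above the highest vehicle array at 4.25, and all 8 were of APAP or high-dose INZ. At 2 days 4 of 15 treated arrays lay above the highest vehicle array at 3.75, and the highest value there was 4.01 in high-dose INZ. Single arrays can exceed the few vehicle arrays of a day by chance. These 2 counts were not set beside those of all probe sets, and nothing is concluded from them. Cyp2b9 was not called in any of the 12 comparisons with vehicle. Its neighbour in the subfamily, Cyp2b13, also female-biased, stayed dim, between 2.50 and 3.43 in all 69 arrays.

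**Figure D5:**
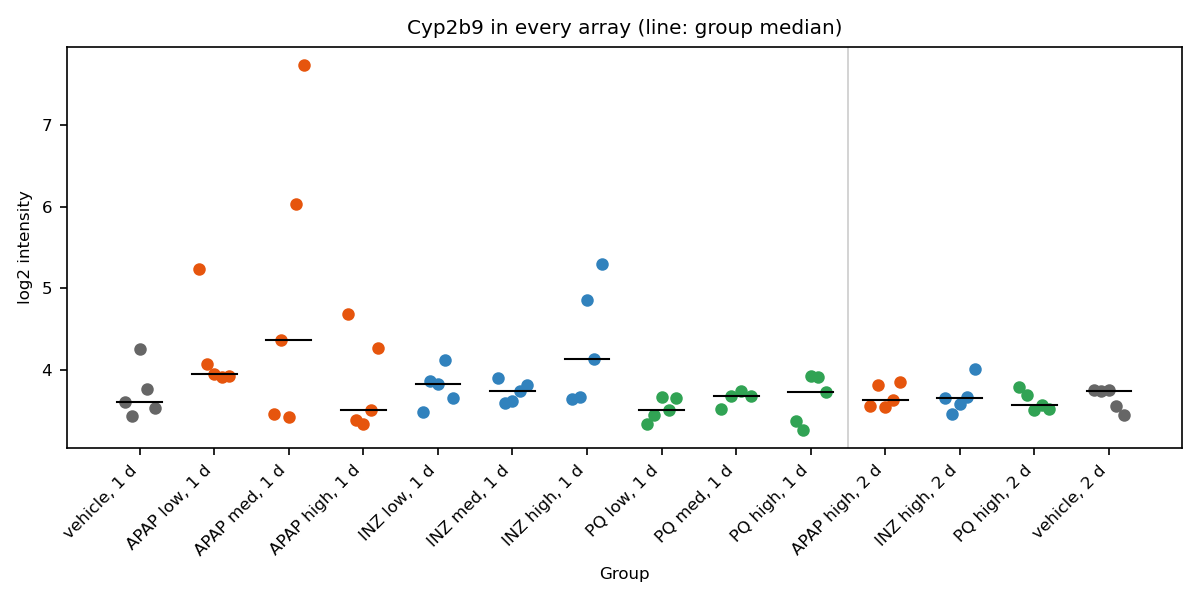
Log2 signal of Cyp2b9 in every array, with vehicle and the treated groups of 1 day, then the treated groups and vehicle of 2 days, and a line at each group median. Single arrays of medium-dose APAP (up to 7.74), high-dose INZ (up to 5.30) and low-dose APAP (5.24) stand above the vehicle arrays of 1 day, which reach 4.25.

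At 2 days after 300 mg/kg APAP, 1 of the 28 genes was called lower and none higher (1.63% of all probe sets were called lower). Cyp2d13 had 7.68, 8.36, 8.11, 8.27 and 8.22 in high-dose livers at 2 days, against 8.64, 8.75, 8.65, 8.54 and 8.71 in vehicle livers of that day. All 5 high-dose arrays lay below all 5 vehicle arrays, with a change of -0.53 (SE 0.16, adjusted p = 0.047), and the call was lost in 8 of the 10 fits that left out 1 of these arrays (adjusted p up to 0.24). Cyp2u1 also separated completely (3.37% of all probe sets did), with 6.63, 7.29, 6.69, 7.30 and 7.29 in high-dose livers and 7.58, 7.31, 7.41, 7.82 and 7.72 in vehicle livers, and its difference was -0.53 (SE 0.23, adjusted p = 0.19). None of the 5 Cyp2c genes called at 1 day was called at 2 days. Cyp2c37 had 9.64, 11.41, 11.33, 11.51 and 10.55 in high-dose livers, against 11.06, 11.56, 11.27, 11.36 and 11.42 in vehicle livers, a difference of -0.45 (SE 0.33, adjusted p = 0.48). Replicate 1, the lowest 2-day array of Cyp2c37, had 19 of the 28 genes below all vehicle arrays, and the other 4 had 7 to 16. Over all probe sets, 21.6% to 48% lay below all vehicle arrays in the 5 arrays of this group. Cyp2c38 again varied widely, with 5.51, 7.96, 8.77, 8.94 and 7.03 in high-dose livers and 8.39, 8.92, 8.76, 8.22 and 8.55 in vehicle livers, and was not called (adjusted p = 0.32).

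The effect at 2 days minus the effect at 1 day tests whether the APAP changes differed between the days. No gene of the 28 was called (2.81% of all probe sets), and 4 had an unadjusted p under 0.05 (21.5% of all probe sets), all in the direction of a smaller fall at 2 days. They were Cyp2j6, with 0.76 (SE 0.23, adjusted p = 0.05), Cyp2j5, with 0.47 (SE 0.16, adjusted p = 0.086), Cyp2j13 and Cyp2c54. Without the 3 arrays that stand apart, 8 of the 28 were called, all higher at 2 days relative to vehicle than at 1 day, as were 7.74% of all probe sets. Without replicate 1 of high-dose APAP at 1 day alone, the count was 4 (5.69% of all probe sets).

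After INZ, 0 of the 28 genes were called at any dose or day (0% of all probe sets at low dose, medium dose and at 2 days, 0.0231% at high dose and 1 day). The number of genes with an unadjusted p under 0.05 was 1 at low dose (5.37% of all probe sets), 3 at medium dose (2.76%), 3 at high dose (4.8%) and 0 at 2 days (4.72%). At high dose and 1 day the smallest p was that of Cyp2s1, a P450 mainly of epithelia such as gut and lung, with 3.32, 3.16, 3.22, 3.23 and 3.34 in INZ livers and 3.43, 3.52, 3.52, 3.49 and 3.47 in vehicle livers, a difference of -0.23 (SE 0.10, adjusted p = 0.94). The groups of this dim gene did not overlap (0.844% of all probe sets separated in this way). At low dose Cyp2s1 again did not overlap, with 3.37, 3.35, 3.33, 3.15 and 3.35 (0.838% of all probe sets). Both comparisons share the 1-day vehicle group of Cyp2s1, which read higher and varied less than that of 2 days (mean 3.485, SD 0.036, against 3.35, SD 0.104). Cyp2c70 had 12.54, 12.40, 12.48, 12.53 and 12.38 in high-dose INZ livers at 1 day, against 12.63, 12.87, 12.43, 12.86 and 12.64 in vehicle livers, a difference of -0.22 (SE 0.10). At 2 days Cyp2c70 had 12.66, 12.58, 12.79, 12.59 and 12.83 in INZ livers and 12.56, 12.59, 12.53, 12.49 and 12.43 in vehicle livers, a difference of 0.17 (SE 0.10). Cyp2d13 had 8.55, 8.32, 8.15, 8.68 and 8.63 in high-dose livers at 1 day, a difference of -0.35 (SE 0.16, adjusted p = 1.0).

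The other smallest p-values after INZ belonged mostly to dim genes. At low dose the lowest, median and highest array were 3.42, 3.45 and 3.59 for Cyp2j13 in INZ livers and 3.49, 3.77 and 3.94 in vehicle livers. Cyp2d34 at low dose had 2.70, 2.85 and 3.12 in INZ livers and 2.46, 2.73 and 2.97 in vehicle livers. Both overlapped with vehicle. At medium dose Cyp2j13 had 3.39, 3.48 and 3.74 in INZ livers and 3.49, 3.77 and 3.94 in vehicle livers. Cyp2c70 had 12.05, 12.55 and 12.68 in INZ livers and 12.43, 12.64 and 12.87 in vehicle livers. Cyp2b13 had 2.63, 2.81 and 3.42 in INZ livers and 2.67, 2.78 and 2.94 in vehicle livers. The groups overlapped in all 3 genes. At 2 days Cyp2a12 had 12.22, 12.23 and 12.28 in INZ livers and 12.26, 12.37 and 12.40 in vehicle livers, and Cyp2b19, an epidermal P450, had 2.67, 2.93 and 3.08 in INZ livers and 2.70, 2.80 and 2.87 in vehicle livers. None of these differences passed the test. The INZ dose trend called 0 of the 28 genes (0.00578% of all probe sets), and the difference between the days called 0 (0% of all probe sets). At an unadjusted p under 0.05 these counts were 2 (4.59% of all probe sets) and 4 (5.09%).

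After PQ, 0 of the 28 genes were called at any dose or day (0% of all probe sets in each of the 4 comparisons) by limma. An unadjusted p under 0.05 was found for 1 gene at low dose (3.12% of all probe sets), 1 at medium dose (1.86%), 3 at high dose (6.25%) and 0 at 2 days (3.63%). At 50 mg/kg and 1 day Cyp2j6 had 6.84, 7.60, 7.42, 7.40 and 7.67 in PQ livers, against 8.01, 7.83, 7.86, 7.85 and 7.71 in vehicle livers, a difference of -0.47 (SE 0.16, adjusted p = 0.77). Cyp2j5 had 10.03, 10.57, 10.59, 10.61 and 10.57 in PQ livers and 10.66, 10.72, 10.63, 10.63 and 10.64 in vehicle livers. All 5 PQ arrays lay below all 5 vehicle arrays in both genes (0.74% of all probe sets separated in this way), with replicate 1 far below the rest. Without replicate 1 the difference of Cyp2j6 was -0.33. Cyp2d13 had 7.72, 8.69, 8.61, 8.58 and 8.58 in PQ livers, a difference of -0.38 (SE 0.16, adjusted p = 0.78) that became -0.20 without replicate 1. Cyp2j13 had 3.31, 3.36, 3.46, 3.25 and 3.62 in PQ livers, a difference of -0.31 (SE 0.09, adjusted p = 0.52). At 12.5 mg/kg the same dim gene had 3.47, 3.40, 3.44, 3.15 and 3.32, below all vehicle arrays (0.647% of all probe sets separated in this way).

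For the remaining PQ groups the lowest, median and highest array are given. At low dose Cyp2d13 had 8.44, 8.58 and 8.75 in PQ livers, against 8.64, 8.72 and 9.20 in vehicle livers. Cyp2d34 at that dose had 2.56, 2.89 and 3.09 in PQ livers, against 2.46, 2.73 and 2.97 in vehicle livers. Both overlapped with vehicle. At medium dose Cyp2j13 had 3.32, 3.46 and 3.65 in PQ livers, against 3.49, 3.77 and 3.94 in vehicle livers. Cyp2d12 then had 3.23, 3.26 and 3.46 in PQ livers, against 2.91, 3.16 and 3.25 in vehicle livers. These groups also overlapped. At the same dose Cyp2s1 had 3.11, 3.41 and 3.61 in PQ livers, against 3.43, 3.49 and 3.52 in vehicle livers. The smallest p-values at 2 days belonged to Cyp2a12, Cyp2d26 and the dim gene Cyp2b19. At 2 days Cyp2a12 had 12.16, 12.26 and 12.33 in PQ livers, against 12.26, 12.37 and 12.40 in vehicle livers. Cyp2b19 had 2.71, 2.85 and 3.15 in PQ livers, against 2.70, 2.80 and 2.87 in vehicle livers. Cyp2d26 had 12.76, 12.87 and 12.91 in PQ livers, against 12.84, 12.93 and 13.03 in vehicle livers. The 2-day groups overlapped in all 3 genes. The PQ dose trend and the difference between the days called 0 of the 28 genes (0% of all probe sets in both), with 3 (5.36% of all probe sets) and 2 (4.05%) at an unadjusted p under 0.05.

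Direct contrasts of the high doses asked whether APAP livers differed from INZ and PQ livers in these genes. At 1 day 12 of the 28 genes were lower after APAP than after INZ and none higher (11.9% of all probe sets were called lower), and 16 had an unadjusted p under 0.05 (36.4%). The 12 were Cyp2c23, Cyp2c29, Cyp2c37, Cyp2c38, Cyp2c50, Cyp2c54, Cyp2d22, Cyp2f2, Cyp2j5, Cyp2j6, Cyp2r1 and Cyp2u1. Cyp2c38 had the largest difference, -1.57 (SE 0.51, adjusted p = 0.018), with 7.15 ± 1.59 in APAP livers and 8.72 ± 0.56 in INZ livers (SD, n = 5 each). Cyp2j5 had the smallest adjusted p, with a difference of -0.57 (SE 0.12, adjusted p = 0.00077). Fitted on the arrays of these groups alone, 0 were called of these and of all probe sets (13 at an unadjusted p under 0.05, against 28.9% of all probe sets, lowest adjusted p = 0.094). Between APAP and PQ at 1 day 0 of the 28 were called (0.387% of all probe sets), 13 had an unadjusted p under 0.05, all lower after APAP (24.8% of all probe sets had one), and the smallest adjusted p was that of Cyp2j5 at 0.059. The number called at an adjusted p under 0.05 was 17 without the 3 arrays that stand apart (17.3% of all probe sets were called lower), and 14 without replicate 1 of high-dose APAP alone (10.7%). At 2 days 0 were called against INZ (3.83% of all probe sets) and 0 against PQ (3.53%), with 8 (20.2% of all probe sets) and 1 (18.2%) at an unadjusted p under 0.05.

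Other genes of the P450 system gave the setting of these falls at 1 day of high-dose APAP. In this comparison 15.3% of all probe sets were called lower and 14.8% higher, and the counts of each list stand beside these shares. Of 23 measured P450s of other families with Cyp2e1, 13 fell and 2 rose, with a median of -0.45. Examples are Cyp8b1, a sterol hydroxylase of bile acid synthesis, at -1.94 (SE 0.39, adjusted p = 0.00077), and Cyp3a44 at -1.06 (SE 0.19, adjusted p = 0.00056). Cyp2e1 fell by 0.29 (SE 0.09, adjusted p = 0.011) and Cyp2c55 by 2.46 (SE 0.46, adjusted p = 0.00058), while Cyp2b10 was not called (-0.56, adjusted p = 0.25). Of 13 measured genes of electron supply and heme metabolism, Cyb5b, Cyb5r3 and Fech fell and Hmox1, which degrades heme, rose (1.75, SE 0.38, adjusted p = 0.0012). Of 24 measured transcription factors of liver P450 genes 8 fell and none rose, with a median of -0.26. Dbp, a clock-controlled factor, changed by -1.67 (SE 0.39, adjusted p = 0.0016), the bile acid receptor gene Nr1h4 by -0.70 (SE 0.18, adjusted p = 0.0038) and the xenobiotic receptor gene Nr1i2 by -0.65 (SE 0.20, adjusted p = 0.011). At 2 days these counts were 2 of 23 P450s, 0 of 13 and 1 of 24, all lower (1.63% of all probe sets were called lower). None of these genes was called after INZ, after PQ or at the lower APAP doses.

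Markers of several liver cell types moved with the fall at 1 day of high-dose APAP, and their part in it was not tested. Over all probe sets, 15.3% were called lower and 14.8% higher at 1 day, and 1.63% lower and 2.85% higher at 2 days. General hepatocyte markers stood at 13.09 to 13.36 in high-dose arrays and 13.21 to 13.27 in vehicle arrays (mean of 10 genes), with 2 of 10 called higher and none lower. Of 9 pericentral markers 8 were lower, and their mean was 7.62 to 9.48 in high-dose arrays, against 9.42 to 9.51 in vehicle arrays. Cyp1a2 and Cyp2e1 are in that list as well as among the P450s above. Of 6 periportal markers 2 were lower, at 9.89 to 10.38 in high-dose arrays and 10.33 to 10.51 in vehicle arrays. Of 10 markers of monocytes and macrophages 7 were higher, at 5.73 to 7.87 in high-dose arrays and 5.78 to 6.06 in vehicle arrays. Neutrophil markers were higher in 3 of 8 genes, at 3.82 to 5.66 in high-dose arrays and 3.78 to 4.09 in vehicle arrays. Stellate and matrix genes were higher in 3 and lower in 1 of 8, at 5.20 to 6.65 in high-dose arrays and 5.31 to 5.56 in vehicle arrays. Both erythroid markers were lower, at 5.31 to 7.87 in high-dose arrays and 7.97 to 8.16 in vehicle arrays. At 2 days 0 of 9 pericentral markers were called, at 7.96 to 9.43 in high-dose arrays and 9.41 to 9.53 in vehicle arrays, while 8 of 10 monocyte and macrophage markers and 4 of 8 stellate and matrix genes were higher.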

How the data were processed

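The authors deposited 1 table of log2 values, 1 per probe set and array. RMA, which corrects background, normalizes quantiles and summarises probes, is named in the submitters' processing notes, and no further normalization was applied here. Symbols came from the platform annotation, and all 28 members had 1 symbol each. The labels gave 14 groups and 69 arrays, while the design text counts 70. Replicates are numbered in the order of the records. The design text gives 5 mice per group, and the labels name no batch. The number of arrays limits the precision. Group means of each probe set were fitted to the 69 arrays together (limma 3.58.1, R 4.3.3, 55 residual degrees of freedom) and tested two-sided, with Benjamini-Hochberg adjustment over 17306 probe sets. The fit assumes 1 spread for every group, so p-values are too small where the compared groups vary more. The procedure was tested on simulated data. Members, lists and tests were chosen with earlier results of these data known. Every member could be named, with array values for up to 12 called members per comparison, or the 3 with the smallest p where none was called, and other genes only from the lists and markers. Alternatives changed 1 setting at a time: the arrays in the fit (only the groups compared, or no APAP groups for INZ and PQ), array or group weights, median centring, repeated quantile normalization, a filter on dim probe sets, trended and robust variance, a covariate for the number in the array title (above 190), vehicles of both days, and single arrays left out, or the 3 that stand apart, which were picked from earlier results of these data. Promoters were read from a RefSeq table and aligned with Biopython 1.88, and plots were drawn with matplotlib 3.10.9.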

Additional observations from a re-analysis of the deposited data

Results flagged for a closer look

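Of 99 groups of values of named Cyp2 genes examined for a single array far from the others, 8 held one, and chance alone gives about 1 in 20. Cyp2f2 was low in replicate 1 of low-dose APAP, at 12.03, while the other 4 arrays lay between 13.00 and 13.11. Cyp2d13 was low in replicate 1 of high-dose PQ at 1 day, at 7.72, while the other 4 lay between 8.58 and 8.69. In these 2 arrays 22 and 23 of the 28 genes lay below all vehicle arrays of the day. Cyp2s1, a dim gene, was low in replicate 4 of low-dose INZ, at 3.15, with the others between 3.33 and 3.37. Cyp2j5 was high in replicate 2 of the vehicle group of 1 day, at 10.72, with the others between 10.63 and 10.66. Cyp2c39 was high in replicate 3 of that group, at 4.65, among 4.23, 4.23, 4.65, 4.26 and 4.25. In high-dose APAP at 1 day, Cyp2b19 and Cyp2d12, both dim, were high in replicate 1, at 2.90 among 2.90, 2.56, 2.65, 2.58 and 2.63 and at 3.54 among 3.54, 2.83, 2.65, 2.77 and 2.87. Cyp2j11, also dim, was high in replicate 4 of that group, at 4.30 among 3.59, 3.61, 3.54, 4.30 and 3.42.

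Cyp2c70 lay on opposite sides of the vehicle mean on the 2 days of high-dose INZ, with neither difference called. It was found by a search of the named genes for this pattern. The share of all probe sets that show the pattern was not counted. All 5 INZ arrays lay below the vehicle mean at 1 day and all 5 above it at 2 days. The vehicle mean was 12.68 at 1 day and 12.52 at 2 days, and the INZ mean 12.47 and 12.69. The effect at 2 days minus the effect at 1 day was 0.39 (SE 0.14, adjusted p = 0.91), so the difference did not pass the test over all probe sets.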

How the results depend on the processing

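No paired analysis was possible because the labels tie no array of 1 group to an array of another. The 14 falls at high-dose APAP and 1 day became 0 with only the arrays of the groups compared, and 9 to 18 with 1 array left out (9 without replicate 2, 18 without replicate 1 of that dose). The APAP dose trend gave 1 instead of 13 with only the groups compared, and 8 to 16 with 1 array left out. The contrast of APAP with INZ at 1 day gave 0 instead of 12 with only the groups compared, and 8 to 15 with 1 array left out. At medium-dose APAP the count of falls, 0, became 4 with array weights, 1 with centred arrays, 1 with the title covariate, 2 with the vehicles of both days and 5 without the 3 arrays that stand apart, and 0 to 1 with 1 array left out. The count of rises, also 0, became 1 with array weights, vehicles of both days or without those 3 arrays, and 0 to 1 with 1 array left out. At high-dose APAP and 2 days the single fall became 0 with only the groups compared, with quantile normalization and with the title covariate, 2 with vehicles of both days, and 0 to 2 with 1 array left out. The difference between the days of APAP, 0, became 12 with array weights, 8 without the 3 arrays, and 1 with group weights, quantile normalization, the filter on dim probe sets or trended and robust variance, and 0 to 4 with 1 array left out. APAP against PQ at 1 day, 0, became 18 with array weights, 4 with the filter and 17 without the 3 arrays, and 0 to 14 with 1 array left out. APAP against INZ at 2 days, 0, became 1 with array weights and 2 without the 3 arrays. Shares of all probe sets were computed only for fits of the groups compared and for some fits without arrays that stand apart. Counts under the other settings show how the calls move and are not results about Cyp2 genes. With only the groups compared, the fit has fewer arrays and its own estimate of the spread. For the other shifts the cause was not tested. The counts for INZ, PQ and low-dose APAP against vehicle stayed 0 in every setting run, and the changes of 2 genes, neither of them called, turned sign at high-dose APAP and 1 day. Cyp2b9 (0.12) was -0.093 without the 3 arrays and -0.093 to 0.25 with 1 array left out, below 0 without replicate 1 of that dose. Cyp2a12 (-0.02) was 0.027 with quantile normalization and -0.046 to 0.012 with 1 array left out, above 0 without replicate 2 of that dose. Dim signals limit what can be said of 8 of the 28 genes.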
